A study of Rattus norvegicus with 9 samples.

Results

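The genes described here are the semaphorins, ephrins, slits and netrins, which are secreted or membrane-bound guidance cues, and their plexin, neuropilin, Eph, Robo and Unc5 receptors. They were chosen from a table of 22050 rat genes by a pattern on the gene symbol, which 69 genes matched, and by a summed count of at least 30 over the 9 libraries, which 44 of the 69 reached. By role, 24 of the 44 are ligands, 18 are receptors, and 2 (Unc50 and Unc5cl) share only the first letters of the name and are not guidance receptors. Within the pattern, the level alone chose the genes: Ephb2, with 115 counts in all, was the lowest inside the minimum, and Ephb1 with 29 and Slit3 with 25 were the nearest below it. The pattern itself was chosen with earlier results of these data known. The 25 genes below the minimum were not tested, and 10 of them (Epha5, Epha7, Epha8, Ntn5, Plxnb3, Robo3, Sema5b, Sema6d, Unc5a and Unc5d) had no count in any library.

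The libraries are mRNA sequencing of NRK-49F, an established line of wild-type rat renal fibroblasts, per the labels. All 3 groups received TGF-β1, a cytokine that turns fibroblasts towards matrix-producing myofibroblasts, with an incubation of 48 h, and each group has 3 libraries. The groups are TGF-β1 with vehicle, TGF-β1 with YEXX-2A and TGF-β1 with YWCH-4A; the labels give the compounds as code names, without dose or time of addition. Cells that received no TGF-β1 are not analysed here. The libraries are described as biological replicates, but no source says that they were separate cultures, so a p-value here measures only how far these libraries spread, which may be technical.

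Guidance cues were named for steering axons, and fibroblasts use the same molecules to regulate adhesion, the actin cytoskeleton, migration and the sorting of cells at tissue boundaries. Secreted class 3 semaphorins bind neuropilins, which pair with plexins that signal to small GTPases, while class 4, 6 and 7 semaphorins are membrane-anchored and act on neighbouring cells. Ephrins and Eph receptor kinases are both tethered to the membrane and can signal in either direction at cell contacts; slits bind Robo receptors, and netrins bind the Unc5 receptors, Dcc and neogenin. In the kidney, several of these families are best known for the branching of the ureteric bud and for the growth of capillaries.

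The genes whose calls against the shared vehicle libraries had opposite signs with the compounds are shown first by their promoters. Among them, only Plxnd1 kept both calls under all 16 alternative settings of the test. Sema3c, Sema3d and Sema4a lost the call with YEXX-2A under some setting, Efnb1 the call with YWCH-4A, and Sema4b both. The 250 bases upstream of an annotated start of each gene are printed so that these stretches can be compared. They are RefSeq sequences of assembly GRCr8, written 5′ to 3′ on the strand of the gene, and capitals mark CAGAC on either strand (GTCTG on the printed one), the letters of a SMAD-binding box; SMADs are the transcription factors downstream of TGF-β1. Sema3c (chr4:18699628-18699877, minus strand) and Sema3d (chr4:23460972-23461221, minus strand) rose with YEXX-2A and fell with YWCH-4A.
Sema3c: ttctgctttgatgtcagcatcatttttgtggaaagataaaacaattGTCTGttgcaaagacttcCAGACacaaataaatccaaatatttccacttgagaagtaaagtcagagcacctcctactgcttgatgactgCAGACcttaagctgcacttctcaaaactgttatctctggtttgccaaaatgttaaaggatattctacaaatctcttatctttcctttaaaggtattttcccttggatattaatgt
Sema3d: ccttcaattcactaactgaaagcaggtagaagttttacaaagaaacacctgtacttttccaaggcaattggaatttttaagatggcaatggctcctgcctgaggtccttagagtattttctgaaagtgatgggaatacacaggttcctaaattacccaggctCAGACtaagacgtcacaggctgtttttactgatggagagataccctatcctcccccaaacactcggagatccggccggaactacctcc
Sema4a (chr2:176212259-176212508, minus strand), Sema4b (chr1:143558547-143558796, plus strand), Plxnd1 (chr4:150715188-150715437, minus strand) and Efnb1 (chrX:68297279-68297528, plus strand) fell with YEXX-2A and rose with YWCH-4A.
Sema4a: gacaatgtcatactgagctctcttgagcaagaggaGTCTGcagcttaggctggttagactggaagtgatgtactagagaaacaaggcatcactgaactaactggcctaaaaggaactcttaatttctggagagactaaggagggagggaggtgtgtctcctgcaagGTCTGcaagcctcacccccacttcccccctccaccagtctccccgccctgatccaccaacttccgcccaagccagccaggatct
Sema4b: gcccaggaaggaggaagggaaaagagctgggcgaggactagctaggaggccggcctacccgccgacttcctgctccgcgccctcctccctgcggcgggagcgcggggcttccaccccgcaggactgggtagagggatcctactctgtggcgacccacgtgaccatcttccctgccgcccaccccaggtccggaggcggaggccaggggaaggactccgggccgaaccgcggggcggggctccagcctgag
Plxnd1: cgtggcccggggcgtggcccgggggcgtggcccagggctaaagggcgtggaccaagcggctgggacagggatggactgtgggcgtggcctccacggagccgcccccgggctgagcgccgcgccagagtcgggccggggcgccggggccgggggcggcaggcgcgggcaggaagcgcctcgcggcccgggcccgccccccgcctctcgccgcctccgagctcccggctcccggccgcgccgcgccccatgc
Efnb1: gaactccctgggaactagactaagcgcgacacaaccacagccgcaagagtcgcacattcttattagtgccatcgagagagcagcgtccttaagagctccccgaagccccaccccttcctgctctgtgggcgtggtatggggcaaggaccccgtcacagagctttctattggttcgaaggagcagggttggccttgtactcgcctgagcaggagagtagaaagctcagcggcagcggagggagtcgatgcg
The Sema3c stretch held 3 matches to CAGAC, Sema3d held 1, Sema4a held 2, and Sema4b, Plxnd1 and Efnb1 held none. G and C made up 35.2% of the Sema3c stretch and 44.8% of that of Sema3d. The shares were 53.2% for Sema4a, 71.6% for Sema4b, 83.2% for Plxnd1 and 58.4% for Efnb1. The Sema3c start used by the table lies inside the annotated gene, with another start farther upstream.

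Of the 44 genes, 36 matched the promoter table, with 37 promoters because Robo1 has 2. Epha4, Plxna1, Sema3a, Sema3b, Sema3f, Sema4g, Slit2 and Unc5c had no match. CAGAC occurred in 20 of the 37 (54.1%, against 42.9% of all 33469 promoters in the table, which include those of non-coding genes). The GC box GGGCGG occurred in 21 (56.8% against 30.5%), and the median GC content was 63.6% against 51.2%. The AP-1 letters TGANTCA occurred in none (6.34% of all promoters), and the TEAD letters GGAATG in 2 (5.41% against 12.1%). The NF-κB consensus was found upstream of Efna2 and Efna4 (5.41% against 3.54%) and the CArG box of serum response factor upstream of Sema3c and a Robo1 start (5.41% against 1.5%). Both strands were searched, and in 1 promoter matches of different motifs overlapped. The matches describe letters in these windows and say nothing about binding.

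Before any comparison, the libraries themselves differed in spread. Total counts ran from 13675868 to 21923715. The biological coefficient of variation, the scatter between replicates beyond counting error, was 16.7% in vehicle, 7.4% in YEXX-2A and 3.67% in YWCH-4A libraries, and 4.68% in vehicle without replicate 2. That vehicle library was the farthest from its group in 32 of the 44 genes (72.7%, against 69.5% of all genes tested). It was the highest of the 3 in 23 of the 44 genes and the lowest in 17, beside 4969 and 5262 of all 11473 genes tested. Its share of mitochondrial transcripts was 1.42% against 1.9% and 2.04% in the other vehicle libraries. As a check of the label, 8 fibroblast markers were summed in CPM (counts scaled to the library size), of which Thy1 and Dcn were under 1 CPM each. That sum ran from 43000 to 55900 CPM in vehicle, from 32300 to 35600 in YEXX-2A and from 10600 to 11600 in YWCH-4A, and the 3 myofibroblast markers summed to 340 to 439, 140 to 142 and 104 to 106. The fibroblast sum was mostly Col1a1 (means of 32190, 21960 and 6464 CPM), Col3a1 and Vim, which were all lowest in YWCH-4A. Mean Pdgfra (180.1, 184.1 and 291.6 CPM), Pdgfrb (161.9, 106.8 and 170.2) and S100a4 (284.3, 329.7 and 333.2) were not below vehicle in YWCH-4A. The myofibroblast sum was mostly Acta2 (means of 321.7, 125.5 and 103.8 CPM). Tagln was at 53.7, 15.4 and 1.28 CPM, and Cnn1 was under 1 CPM. Defining markers of other guidance-rich cell types were near absent: 6 of the 7 listed endothelial markers summed to 0.5 to 1.68 CPM over all libraries, and the neuronal and Schwann cell markers Rbfox3, Snap25, Elavl4 and Sox10 were at 0. The remaining endothelial marker, Pecam1, had no entry under that symbol. The 8 listed neuronal and Schwann markers summed to 4.91 to 7.51, 5.62 to 7.1 and 5.88 to 6.28 CPM. The epithelial sum (1710 to 2200, 1480 to 1570 and 897 to 946 CPM) was nearly all Krt8, with Epcam and Krt18 at 0, and the leukocyte sum (47.3 to 62.9, 41.7 to 45.1 and 66.2 to 73.7 CPM) was nearly all Cd68. The part of these shifts in the results that follow was not tested.

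Per transcript length, receptors were the most abundant guidance genes in these fibroblasts. In vehicle libraries, Plxnb2, a receptor for class 4 semaphorins, stood at 224.9 ± 19.6 FPKM (fragments scaled by transcript length and library depth, SD, n = 3), and Nrp2, the neuropilin that binds Sema3f and Sema3c, at 178.6 ± 10.8. Unc5b, a netrin receptor, followed at 111.5 ± 7.36, and Plxna1, the signalling partner of the neuropilins, at 92.7 ± 7.67. The highest ligand level was that of the secreted semaphorin Sema3f, at 68.0 ± 7.34 FPKM, ahead of the ephrin Efna1 at 41.2 ± 2.70. Among receptor kinases, Ephb4, the receptor of Efnb2, was at 52.5 ± 6.77 and Epha2, which binds ephrin-A ligands, at 43.7 ± 5.66. The lowest were Sema3g and Sema4a (0.36 ± 0.06 and 0.36 ± 0.02 FPKM) and Ephb2 (0.23 ± 0.04).

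**Figure D1:**
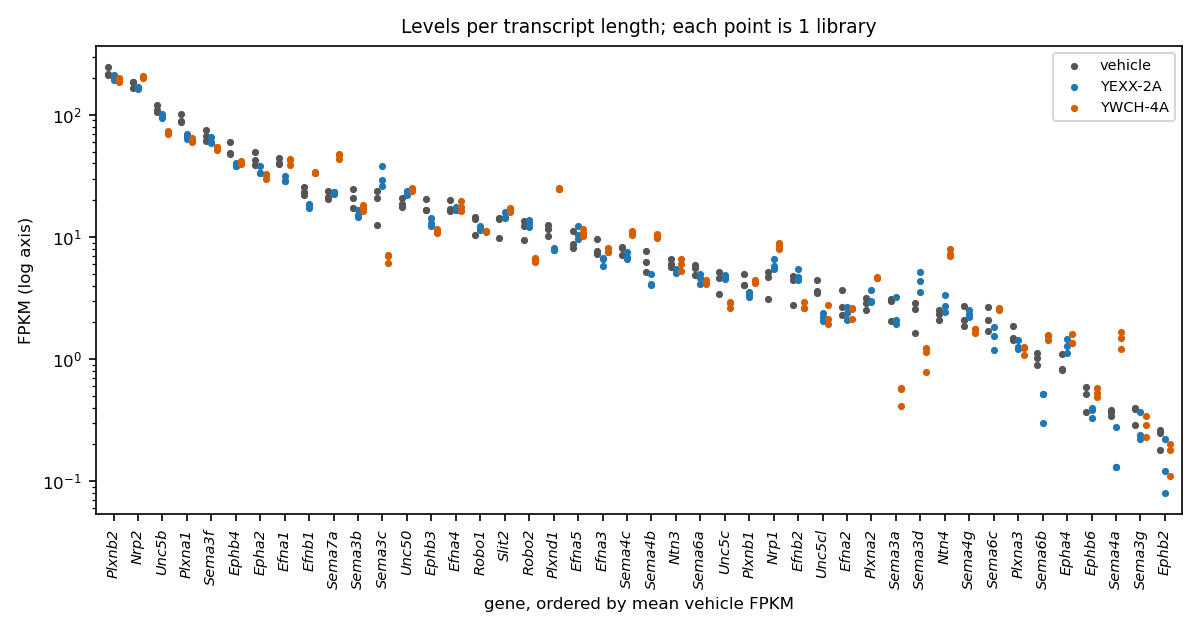
FPKM of the 44 genes on a log axis, ordered by their vehicle mean; each point is a library, coloured by group. Plxnb2, Nrp2 and Unc5b lead, and the YWCH-4A points of Sema3a, Sema3c, Sema3d, Plxnd1, Ntn4 and Sema4a lie apart from the other groups.

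With YEXX-2A, most guidance genes that passed the test against vehicle were lower, and 25 of 44 did not pass. Of the 44 genes, 19 passed the test (edgeR's quasi-likelihood test, Benjamini-Hochberg adjusted p under 0.05 over all genes), 2 of them higher and 17 lower, where 36.1% of all 11473 genes tested were called (17.6% higher and 18.5% lower). The 2 that rose were the secreted semaphorins Sema3c and Sema3d; those that fell included the semaphorins Sema4a and Sema6b, each by at least 2-fold (2.48% of all genes had such a call), the plexins Plxna1 and Plxnd1, and the ephrins Efna1 and Efnb1. Among ligands 2 rose and 8 fell of 24, and among receptors 0 rose and 8 fell of 18. In bulk libraries a lower value cannot be told apart from fewer cells that express the gene. The median log2 fold change was -0.28 for the 44 genes and 0.01 for all genes, and in 24 genes the 3 YEXX-2A values did not overlap the 3 vehicle values (51.6% of all genes). Of the 19 calls, 7 held under all 16 alternative settings (Sema6b, Plxna1, Plxnd1, Efna1, Efnb1, Ephb4 and Unc5cl), and the count was 7 without YEXX-2A replicate 2, 9 without YEXX-2A replicate 1 and 20 without vehicle replicate 2.

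With YWCH-4A, guidance genes differed from vehicle in both directions. Here 28 of 44 passed, 9 higher and 19 lower (30.6% of all genes were called, 15.7% higher and 14.9% lower), and 35 did not overlap (46% of all genes). The genes that rose were Sema4a, Sema4b and Sema7a, the receptors Nrp1, Plxna2, Plxnd1 and Epha4, and the ligands Efnb1 and Ntn4. The genes that fell included 5 of 6 class 3 semaphorins, both Robo receptors, both Unc5 receptors, Plxna1, Epha2, Ephb3 and Ephb4. Among receptors 4 rose and 10 fell of 18, and among ligands 5 rose and 8 fell of 24. The median log2 fold change was -0.33, against 0.03 for all genes. Changes of at least 2-fold were called for Sema3a, Sema3c, Sema3d, Sema4a and Ntn4 (6.15% of all genes).

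Set against YEXX-2A directly, YWCH-4A libraries had lower values of 4 of 6 class 3 semaphorins and higher values of 6 of 8 membrane semaphorins, with Sema4g lower. In this comparison 21 of 44 genes passed, 12 higher and 9 lower in YWCH-4A (31.3% of all genes, 16.2% higher and 15.1% lower), and 31 did not overlap (58.9%). Of the ligands 15 of 24 were called, and of the receptors 6 of 18. At least 2-fold changes were called in 9 genes (Sema3a, Sema3c, Sema3d, Sema4a, Sema4b, Sema6b, Plxnd1, Robo2 and Ntn4), where 6.69% of all genes had one. The median log2 fold change was 0.02, against 0.00 for all genes. All comparisons against vehicle share the same vehicle libraries, so their values are given side by side by gene, with ± as the SD over 3 libraries for CPM and FPKM and as the SE for log2 fold changes.

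**Figure D2:**
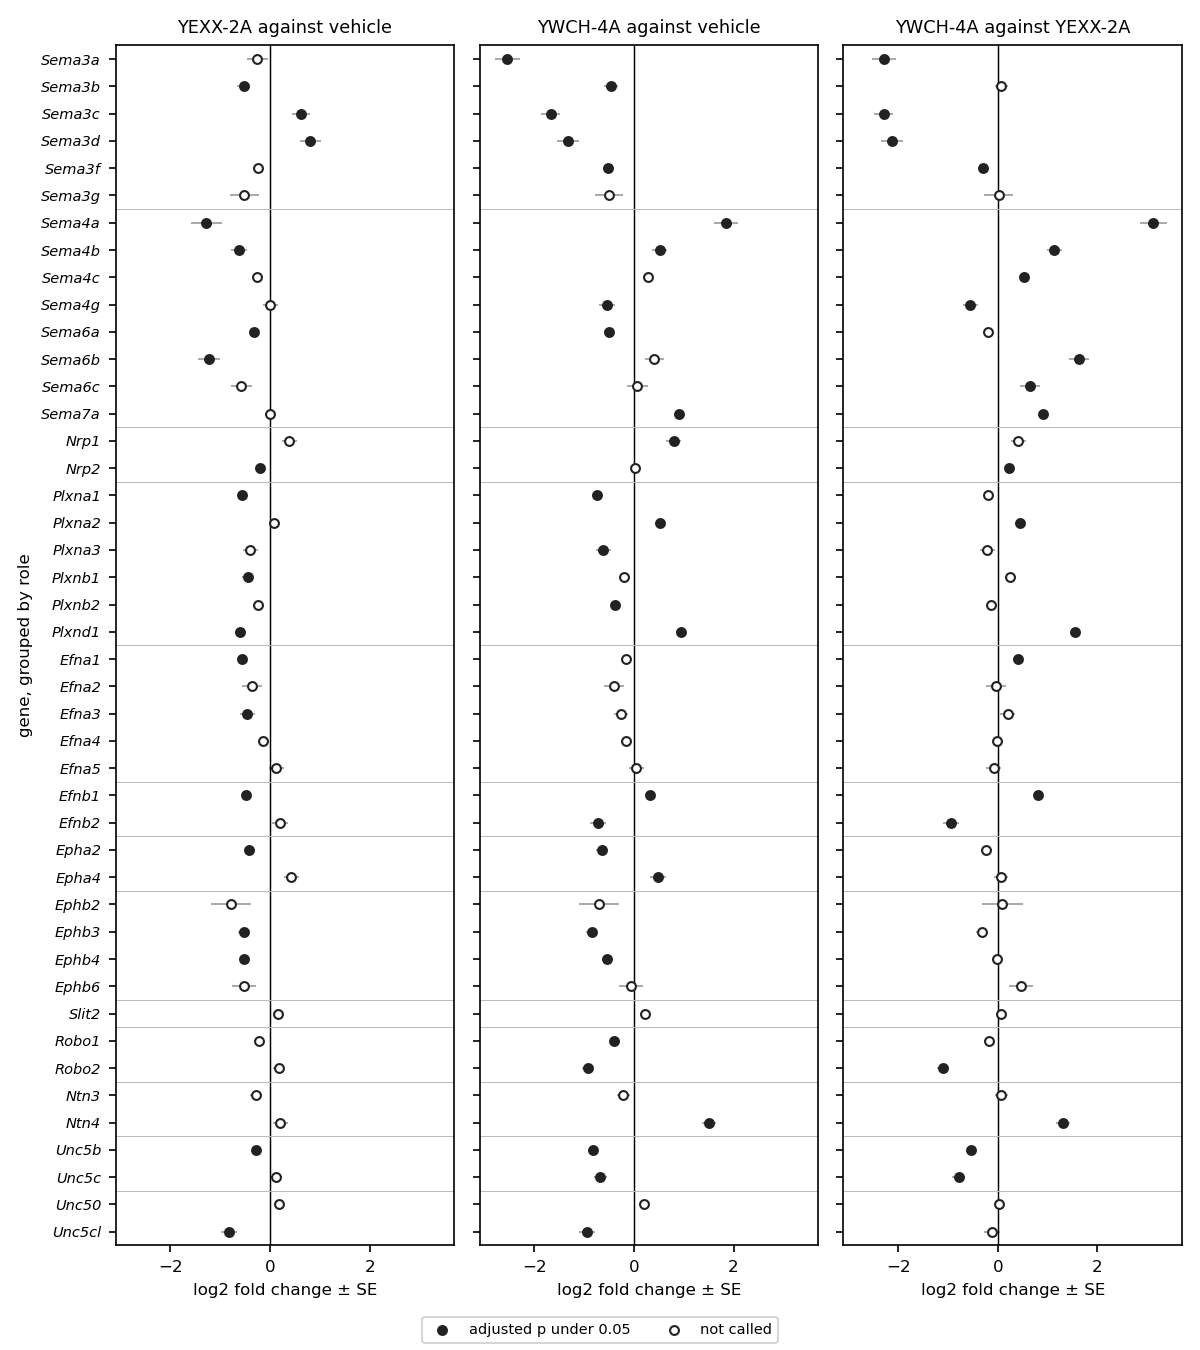
Log2 fold change ± SE of each gene in the 3 comparisons, grouped by role; filled points passed the test at an adjusted p under 0.05 and open points did not. Sema3c and Sema3d are right of 0 in the first panel and left of it in the others, and Sema4a, Sema4b, Plxnd1 and Efnb1 show the reverse.

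The secreted class 3 semaphorins Sema3a, Sema3c and Sema3d had the largest falls with YWCH-4A among the 44 genes. Sema3c, which signals through neuropilins and Plxnd1 and is known for roles in vessel and heart outflow development, measured 109.9, 71.4 and 126.8 CPM in vehicle, 147.6, 191.4 and 135.0 in YEXX-2A and 33.2, 33.8 and 29.6 in YWCH-4A libraries. All YEXX-2A libraries were above, and all YWCH-4A libraries below, every vehicle library. Against vehicle the log2 fold change was 0.62 ± 0.19 (SE) with YEXX-2A (1.54-fold, adjusted p = 0.0288) and -1.67 ± 0.20 with YWCH-4A (3.19-fold lower, adjusted p = 9.35e-05), and YWCH-4A was 4.90-fold below YEXX-2A (adjusted p = 1.08e-05). The rise with YEXX-2A did not pass without vehicle replicate 2 (log2 0.42, adjusted p = 0.0961), without YEXX-2A replicate 1 (0.0636) or without YEXX-2A replicate 2 (0.121). In FPKM, Sema3c made up 17.0% ± 5.53 of the class 3 semaphorin sum in vehicle, 27.0% ± 4.38 in YEXX-2A and 8.52% ± 0.727 in YWCH-4A.

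Sema3d, a close relative of Sema3c, moved in the same directions at a lower level. It measured 13.0, 9.03 and 14.9 CPM in vehicle, 21.6, 25.3 and 17.8 in YEXX-2A and 5.30, 5.76 and 3.69 in YWCH-4A. The 3 groups did not overlap. The log2 fold change was 0.81 ± 0.20 with YEXX-2A (adjusted p = 0.0159) and -1.32 ± 0.22 with YWCH-4A (adjusted p = 0.00118), and -2.13 ± 0.21 between the compounds. Here too the rise with YEXX-2A did not pass without YEXX-2A replicate 1 (adjusted p = 0.0542) or replicate 2 (0.0738). Sema3a, the classical repellent ligand of Nrp1, measured 10.9, 7.76 and 10.6 CPM in vehicle, 6.55, 10.8 and 7.10 in YEXX-2A and 1.83, 1.82 and 1.31 in YWCH-4A. Vehicle and YEXX-2A overlapped (log2 -0.25 ± 0.21, adjusted p = 0.344), while YWCH-4A was 5.83-fold below vehicle (adjusted p = 2.32e-05) and 4.89-fold below YEXX-2A (adjusted p = 5.84e-05). In the RefSeq annotation Sema3c, Sema3e, Sema3a and Sema3d lie in this order on rat chromosome 4, with 4 coding genes between the first pair, 12 between the next and 0 between Sema3a and Sema3d; Sema3e had 16 counts in all.

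The other class 3 genes changed by less. Sema3f, the most abundant of them, fell with YWCH-4A from 253.1 ± 37.5 to 175.5 ± 5.63 CPM (1.44-fold, adjusted p = 0.00221) and was 214.9 ± 15.5 in YEXX-2A (adjusted p = 0.0776). Between the compounds its call (1.22-fold, adjusted p = 0.0443) was lost in 9 of 16 alternatives (adjusted p up to 0.146). Sema3b fell with both compounds, from 55.8 ± 12.2 to 38.6 ± 2.97 (adjusted p = 0.0181) and 40.6 ± 2.39 CPM (adjusted p = 0.0267). Neither Sema3b call held without replicate 1 or without replicate 2 of the compound in question (adjusted p up to 0.0759 with YEXX-2A and 0.0999 with YWCH-4A). Sema3g, at 1.46 ± 0.26, 1.05 ± 0.32 and 1.02 ± 0.20 CPM, passed in no comparison. Summed per length, the 6 class 3 genes gave 113.4 ± 3.07 FPKM in vehicle, 114.8 ± 4.62 in YEXX-2A and 79.2 ± 1.03 in YWCH-4A. FPKM values lack the scaling between libraries of the CPM values, so these sums are not on the scale that was tested.

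Membrane-bound semaphorins were higher with YWCH-4A than with YEXX-2A in 6 of 8 genes and lower in 1, Sema4g. Sema4a, a class 4 semaphorin known from immune cells and a ligand of B- and D-type plexins, was a low gene: it measured 1.24, 0.79 and 0.73 CPM in vehicle, 0.41, 0.41 and 0.30 in YEXX-2A and 3.28, 3.17 and 3.63 in YWCH-4A, from 4 to 9 counts in each YEXX-2A library and 58 to 70 in each YWCH-4A library. The groups did not overlap. YWCH-4A was 3.59-fold above vehicle (log2 1.84 ± 0.24, adjusted p = 0.00021) and 8.71-fold above YEXX-2A (log2 3.12 ± 0.27, adjusted p = 1.04e-05). The fall with YEXX-2A was 2.43-fold (adjusted p = 0.0159) and did not pass without vehicle replicate 1 (log2 -0.99, adjusted p = 0.0703) or without YEXX-2A replicate 2 (0.0536).

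Sema4b, another class 4 member, measured 22.1, 29.3 and 18.5 CPM in vehicle, 13.9, 14.3 and 17.4 in YEXX-2A and 33.5, 31.7 and 34.5 in YWCH-4A. The spread among vehicle libraries was the widest, and the groups were still separate. YWCH-4A was 2.20-fold above YEXX-2A (log2 1.14 ± 0.15, adjusted p = 0.000304). Against vehicle, Sema4b fell with YEXX-2A (log2 -0.62 ± 0.16, adjusted p = 0.017) and rose with YWCH-4A (log2 0.51 ± 0.15, adjusted p = 0.0258). The fall did not pass without YEXX-2A replicate 1 (adjusted p = 0.0656) or 2 (0.072), and the rise did not pass when vehicle replicate 1 or 3 or any YWCH-4A library was left out (adjusted p from 0.0621 to 0.0879).

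Sema6b, a transmembrane ligand of A-type plexins, measured 3.52, 4.83 and 4.08 CPM in vehicle, 2.00, 1.98 and 1.18 in YEXX-2A and 5.54, 5.71 and 5.19 in YWCH-4A. It fell 2.34-fold with YEXX-2A (log2 -1.22 ± 0.21, adjusted p = 0.0044). The YWCH-4A values lay above all vehicle values without passing (log2 0.41 ± 0.19, adjusted p = 0.135; without vehicle replicate 2, 0.53 and 0.0485), and were 3.10-fold above YEXX-2A (adjusted p = 0.000179). Sema7a, a lipid-anchored semaphorin that binds integrins and Plxnc1 and has been studied in tissue fibrosis, measured 54.9, 69.5 and 58.6 CPM in vehicle, 58.8, 61.0 and 61.8 in YEXX-2A and 107.7, 114.5 and 117.9 in YWCH-4A. The YWCH-4A libraries were above all others, and vehicle and YEXX-2A overlapped. The log2 fold change was 0.89 ± 0.09 with YWCH-4A (adjusted p = 2.4e-05), -0.01 ± 0.09 with YEXX-2A (adjusted p = 0.932) and 0.91 ± 0.09 between the compounds (adjusted p = 2.47e-05). Plxnc1, its plexin, had 16 counts over the 9 libraries.

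The remaining membrane semaphorins had smaller differences. Sema4c, a ligand of Plxnb2, was higher with YWCH-4A than with YEXX-2A (31.5 ± 0.86 against 21.8 ± 1.35 CPM, adjusted p = 0.00245) and was 26.0 ± 2.99 in vehicle. Sema6c was also higher (7.77 ± 0.12 against 4.90 ± 1.06 CPM, adjusted p = 0.0354), and Sema4g was lower (6.99 ± 0.26 against 10.2 ± 0.63 CPM, adjusted p = 0.024). Against vehicle, Sema4g also fell with YWCH-4A (1.46-fold, adjusted p = 0.027), a call that did not hold without vehicle replicate 2 or any YWCH-4A library (adjusted p up to 0.0845). The calls of Sema6c and Sema4g between the compounds did not hold in most of the fits that left out a compound library (adjusted p up to 0.105 and 0.09). Sema6a fell with both compounds, from 17.7 ± 1.00 to 14.2 ± 1.29 (adjusted p = 0.035) and 12.5 ± 0.42 CPM (adjusted p = 0.0035). Its call with YEXX-2A did not hold without vehicle replicate 1 or any compound library (adjusted p up to 0.1).

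Among the receptors of semaphorins, Plxnd1 had the largest difference between the compounds. Plxnd1, the plexin that binds Sema3e directly and Sema3c with a neuropilin and is best known from endothelial cells, measured 64.5, 85.3 and 73.3 CPM in vehicle, 49.8, 47.9 and 48.7 in YEXX-2A and 142.2, 140.3 and 146.0 in YWCH-4A. The groups were separate, with YEXX-2A lowest and YWCH-4A highest. The log2 fold change was -0.61 ± 0.09 with YEXX-2A (adjusted p = 0.00264), 0.94 ± 0.09 with YWCH-4A (adjusted p = 2.1e-05) and 1.55 ± 0.09 between the compounds (2.93-fold, adjusted p = 5.65e-07). Plxnd1 made up 3.39% ± 0.213 of the summed plexin FPKM in vehicle, 2.81% ± 0.137 in YEXX-2A and 8.53% ± 0.175 in YWCH-4A. Plxnd1 was highest in the libraries in which its ligand Sema3c was lowest. The 6 endothelial markers found (Pecam1 had no entry), all too low to test, summed to 0.713 to 1.24, 0.518 to 1.68 and 0.5 to 0.798 CPM.

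Plxna1 fell with both compounds. It measured 811.5, 1003 and 811.1 CPM in vehicle, 592.8, 561.2 and 628.5 in YEXX-2A and 521.1, 500.9 and 541.8 in YWCH-4A. The vehicle libraries were above all others. The falls were 1.47-fold (adjusted p = 0.00306) and 1.68-fold (adjusted p = 9.77e-05), and the compounds did not differ beyond the test (log2 -0.19 ± 0.09, adjusted p = 0.127; 0.00208 without vehicle replicate 2). Plxnb2 fell with YWCH-4A (1521 ± 198.0 to 1161 ± 47.8 CPM, adjusted p = 0.00721), as did Plxna3 (12.5 ± 2.45 to 8.20 ± 0.68 CPM, adjusted p = 0.0105, or 0.0543 without YWCH-4A replicate 1). With YEXX-2A, Plxnb2 (1280 ± 67.9 CPM, adjusted p = 0.05) and Plxna3 (9.55 ± 0.90 CPM, adjusted p = 0.0587) lay below all vehicle values without passing. Neither passed between the compounds (adjusted p = 0.256 and 0.301), although Plxnb2 did without vehicle replicate 2 (0.0147). Plxnb1 fell with YEXX-2A (31.2 ± 5.05 to 22.8 ± 1.20 CPM, adjusted p = 0.0168, or up to 0.0643 without YEXX-2A replicate 1 or 2). It was 27.1 ± 0.71 CPM with YWCH-4A (adjusted p = 0.21). Plxna2 rose with YWCH-4A, from 33.7 ± 2.93 to 48.4 ± 0.85 CPM (adjusted p = 0.00245), and was 35.5 ± 4.23 in YEXX-2A, below YWCH-4A (adjusted p = 0.00633).

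The neuropilins, which are co-receptors of both class 3 semaphorins and VEGF, differed from each other. Nrp1 was 24.96 ± 5.73 CPM in vehicle, 32.7 ± 3.37 in YEXX-2A (adjusted p = 0.0626) and 43.5 ± 1.99 in YWCH-4A, a rise of 1.74-fold (adjusted p = 0.0022). Nrp2 was 1207 ± 26.4, 1055 ± 21.9 and 1226 ± 20.4 CPM, lower with YEXX-2A than with vehicle (1.14-fold, adjusted p = 0.0218) and higher with YWCH-4A than with YEXX-2A (1.16-fold, adjusted p = 0.0112). Without YEXX-2A replicate 1 or 2 the fall in Nrp2 did not pass (adjusted p up to 0.0953), and without YEXX-2A replicate 2 or YWCH-4A replicate 3 neither did the difference between the compounds (adjusted p up to 0.0651). Nrp2 remained far above Nrp1 per length, with an FPKM ratio of 42.8 ± 9.20 in vehicle, 28.1 ± 3.30 in YEXX-2A and 24.2 ± 1.02 in YWCH-4A.

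**Figure D3:**
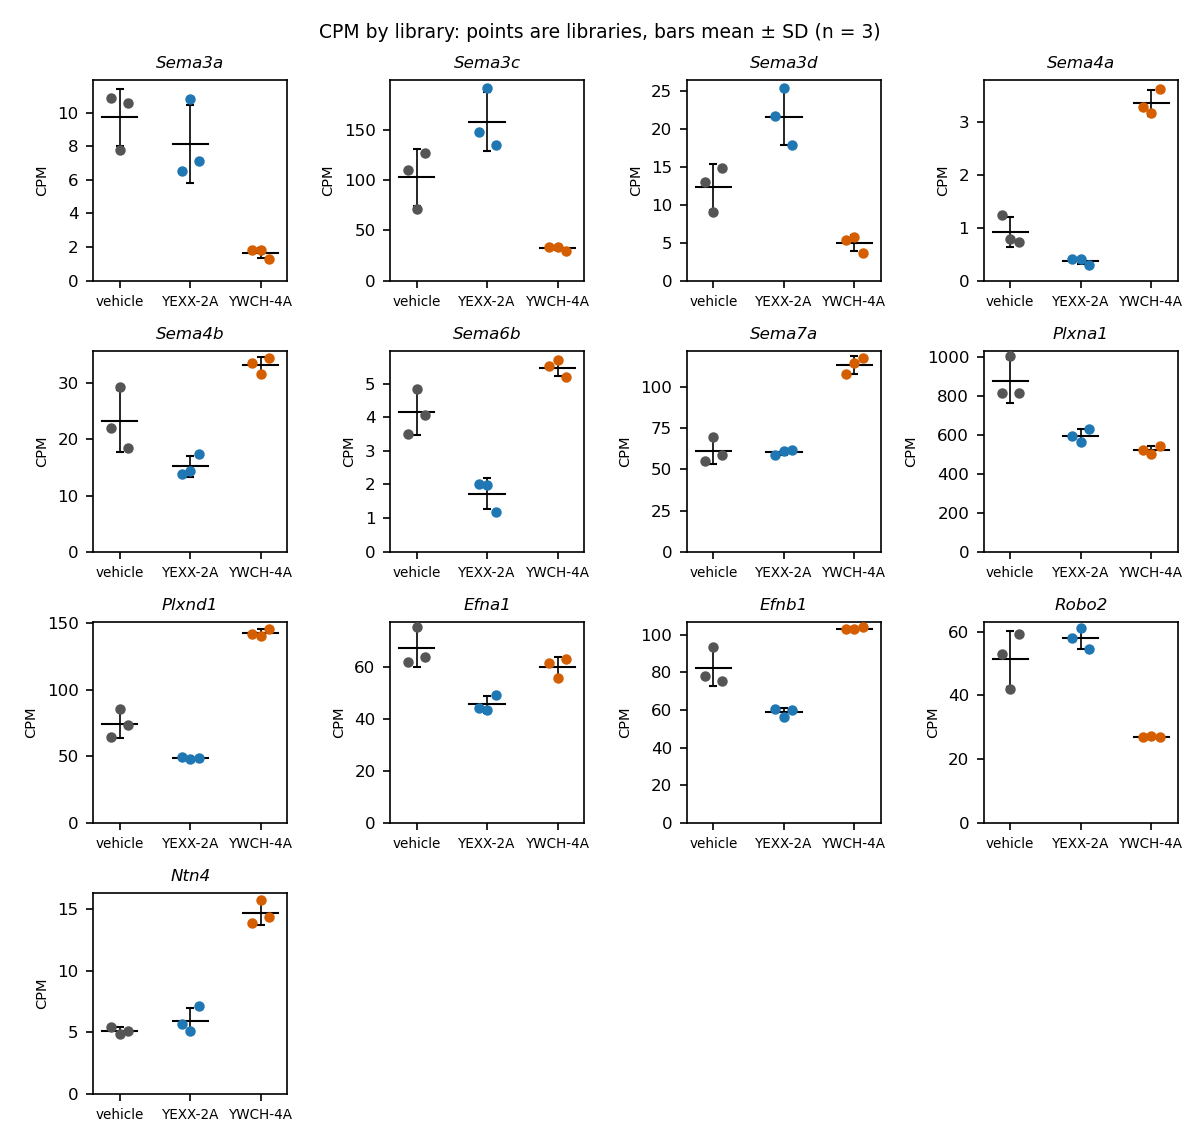
CPM of the 13 genes given in full, by group; points are libraries, and the long and short bars are the mean and SD (n = 3). The YWCH-4A libraries are the lowest group for Sema3a, Sema3c, Sema3d, Plxna1 and Robo2 and the highest for Sema4a, Sema4b, Sema6b, Sema7a, Plxnd1, Efnb1 and Ntn4.

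In the ephrin system, the pair of B-type ligands moved apart with YWCH-4A while the receptors Epha2, Ephb3 and Ephb4 fell with both compounds. Efnb1, a transmembrane ligand of EphB receptors known for setting tissue boundaries, measured 78.1, 93.6 and 75.4 CPM in vehicle, 60.5, 56.4 and 59.8 in YEXX-2A and 102.8, 102.8 and 104.2 in YWCH-4A. The groups were separate, and the YWCH-4A libraries nearly coincided. Efnb1 fell with YEXX-2A (log2 -0.48 ± 0.08, adjusted p = 0.00429), rose with YWCH-4A (log2 0.33 ± 0.08, adjusted p = 0.0122; 0.0532 without YWCH-4A replicate 3) and was 1.75-fold higher in YWCH-4A than in YEXX-2A (adjusted p = 4.29e-05). Efnb2, the ligand of Ephb4 and a marker of arterial endothelium, went the other way: it was 17.9 ± 4.23 CPM in vehicle, 20.7 ± 2.01 in YEXX-2A and 10.9 ± 0.74 in YWCH-4A, where it fell 1.65-fold against vehicle (adjusted p = 0.00671) and was 1.91-fold below YEXX-2A (adjusted p = 0.00153). The FPKM ratio of Efnb1 to Efnb2 was 6.37 ± 2.52, 3.73 ± 0.468 and 12.4 ± 0.857, with vehicle replicate 2 (9.26) apart from the other vehicle libraries (5.20 and 4.64).

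Ephrin-A ligands, which are lipid-anchored, passed against vehicle in 2 of 5 genes with YEXX-2A, both lower. That share was near the one of all genes (40% against 36.1%). With YWCH-4A, 0 of 5 passed against vehicle, beside 30.6% of all genes. Efna1, the main ligand of Epha2, measured 62.2, 75.8 and 64.1 CPM in vehicle, 44.3, 43.6 and 49.4 in YEXX-2A and 61.7, 56.0 and 63.1 in YWCH-4A. The YEXX-2A libraries were below all others, and the YWCH-4A and vehicle values overlapped. The fall with YEXX-2A was 1.47-fold (log2 -0.56 ± 0.09, adjusted p = 0.00373), the value with YWCH-4A was -0.16 ± 0.09 (adjusted p = 0.216), and YWCH-4A was 1.32-fold above YEXX-2A (adjusted p = 0.00853). Efna3 fell with YEXX-2A (5.99 ± 0.83 to 4.38 ± 0.36 CPM, adjusted p = 0.0377), a call that 11 of 16 alternatives removed, each compound library left out among them (adjusted p up to 0.134). Efna2, Efna4 and Efna5 passed in no comparison, with log2 values between -0.41 and 0.13.

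Of the 6 Eph receptors, Epha2, Ephb3 and Ephb4 fell with either compound, and Epha4 rose with YWCH-4A. Epha2 fell from 182.4 ± 31.5 to 136.9 ± 11.1 CPM with YEXX-2A (adjusted p = 0.0212; up to 0.0875 without YEXX-2A replicate 1 or 2) and to 116.3 ± 6.39 with YWCH-4A (adjusted p = 0.00149). Ephb3 fell from 75.9 ± 12.6 to 52.8 ± 4.59 (adjusted p = 0.00975; 0.052 without YEXX-2A replicate 2) and 42.1 ± 1.72 CPM (adjusted p = 0.000231). Ephb4 fell from 226.3 ± 39.2 to 157.1 ± 7.21 (adjusted p = 0.00741) and 154.9 ± 5.62 CPM (adjusted p = 0.00256). Epha4, a receptor that binds both ephrin classes, was higher with YWCH-4A (6.13 ± 0.96 to 8.58 ± 0.79 CPM, adjusted p = 0.0354), a call lost in 8 of 16 alternatives, each YWCH-4A library left out among them (adjusted p up to 0.135). Ephb2 and Ephb6 (2.15 ± 0.57 CPM in vehicle) passed in no comparison.

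**Figure D4:**
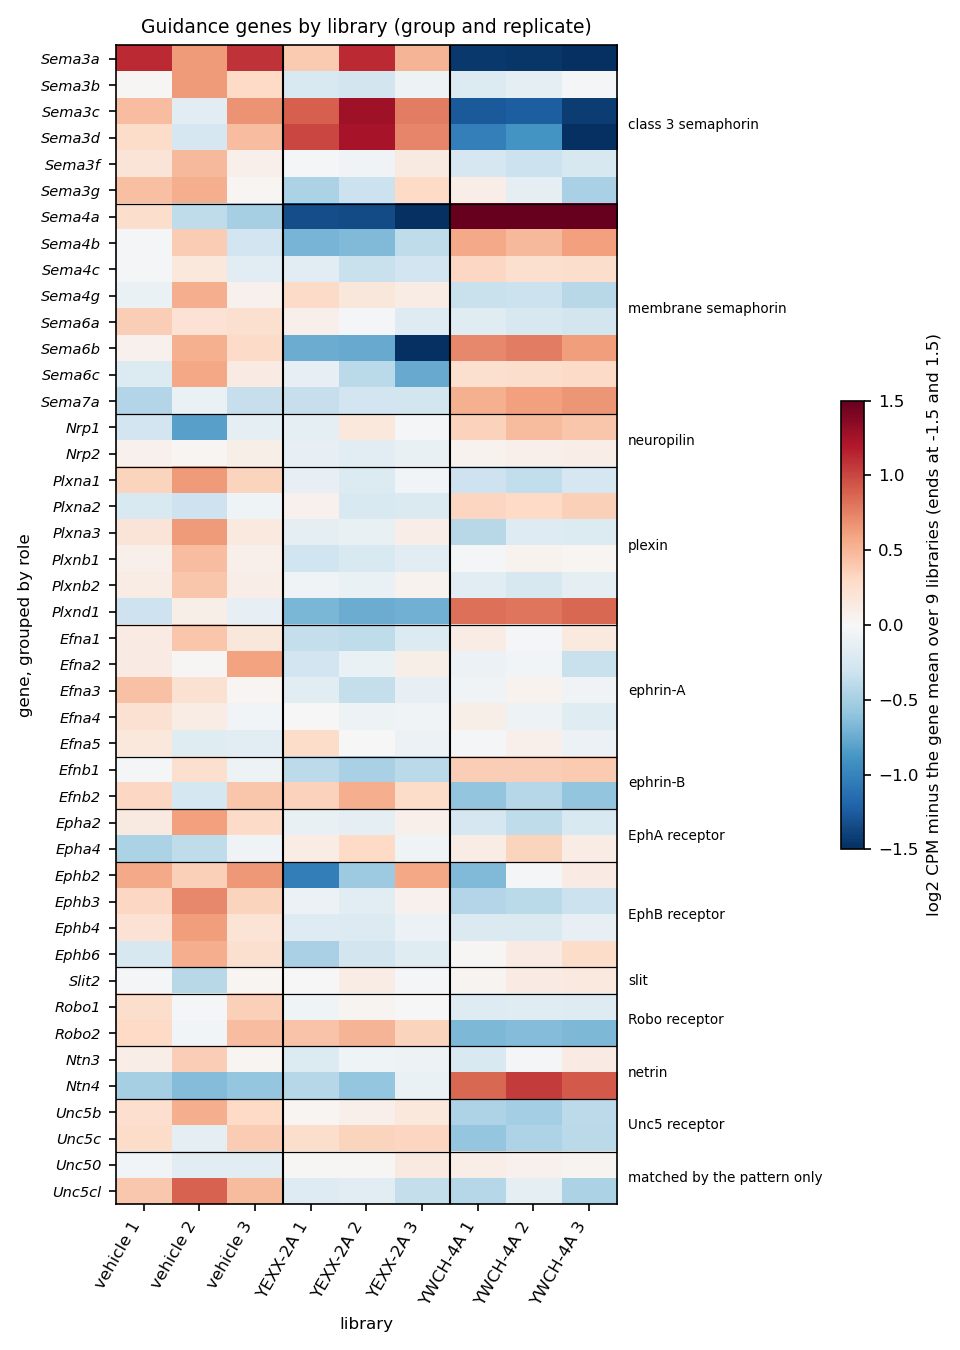
Log2 CPM of the 44 genes in each library minus the mean of the gene over 9 libraries, grouped by role; the colour scale ends at -1.5 and 1.5, which Sema3a, Sema3d, Sema4a and Sema6b exceed in at least 1 library. Vehicle replicate 2 differs in shade from its neighbours in many rows, and the YWCH-4A libraries are dark blue for Sema3a, Sema3c and Sema3d and dark red for Sema4a.

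The slit and netrin systems changed on the receptor side with YWCH-4A, with a netrin rising. Robo2, a slit receptor required for placing the single ureteric bud, measured 52.9, 41.9 and 59.3 CPM in vehicle, 58.0, 61.1 and 54.4 in YEXX-2A and 26.8, 27.3 and 26.9 in YWCH-4A. Vehicle and YEXX-2A overlapped, and the YWCH-4A libraries were below both. The fall was 1.9-fold against vehicle (log2 -0.93 ± 0.11, adjusted p = 0.000139) and 2.14-fold against YEXX-2A (adjusted p = 4.51e-05). Robo1 fell less with YWCH-4A, from 67.1 ± 9.03 to 51.0 ± 0.21 CPM (adjusted p = 0.00822), so the FPKM ratio of Robo1 to Robo2 was 1.10 ± 0.0194 in vehicle, 0.918 ± 0.0517 in YEXX-2A and 1.71 ± 0.0433 in YWCH-4A. Robo1 with YEXX-2A was 57.8 ± 2.07 CPM (adjusted p = 0.0874; without vehicle replicate 2 it was called lower, adjusted p = 0.000545). Their ligand Slit2 did not pass in any comparison, at 93.3 ± 15.0, 103.9 ± 5.23 and 109.1 ± 4.40 CPM.

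Ntn4, a netrin of basement membranes that binds laminin, measured 5.41, 4.83 and 5.10 CPM in vehicle, 5.64, 5.09 and 7.10 in YEXX-2A and 13.8, 15.7 and 14.4 in YWCH-4A. Every YWCH-4A library was above every other library. The rise was 2.86-fold against vehicle (log2 1.51 ± 0.14, adjusted p = 1.68e-05) and 2.49-fold against YEXX-2A (adjusted p = 4.51e-05), and YEXX-2A did not differ from vehicle beyond the test (log2 0.20 ± 0.15, adjusted p = 0.291). Ntn3 (15.7 ± 1.98 CPM in vehicle) passed in no comparison, and Ntn1 had 1 count in all. Unc5b fell with both compounds, from 666.8 ± 73.1 CPM in vehicle to 548.0 ± 24.5 in YEXX-2A (adjusted p = 0.0237; up to 0.0891 without YEXX-2A replicate 1 or 2) and 377.0 ± 14.9 in YWCH-4A (1.77-fold, adjusted p = 2.4e-05), which was also below YEXX-2A (adjusted p = 0.000576). Unc5c was 27.9 ± 5.06, 30.2 ± 0.75 and 17.5 ± 1.13 CPM, lower with YWCH-4A than with vehicle (adjusted p = 0.00239) and YEXX-2A (adjusted p = 0.000921).

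Of the pair matched by name only, Unc50 passed in no comparison (23.5 ± 1.26, 26.7 ± 1.26 and 26.9 ± 0.58 CPM). Unc5cl, a death-domain protein, fell with YEXX-2A from 11.3 ± 2.12 to 6.30 ± 0.47 CPM (adjusted p = 0.00656) and with YWCH-4A to 5.83 ± 0.75 (adjusted p = 0.00122).

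A list of 88 other genes of these pathways, of which 68 could be tested, holds co-receptors, effectors and related ligands. The test called 23 with YEXX-2A (6 higher, 17 lower), 32 with YWCH-4A (7 higher, 25 lower) and 30 between the compounds (11 higher, 19 lower in YWCH-4A). These are 33.8%, 47.1% and 44.1% of those tested, beside 36.1%, 30.6% and 31.3% of all genes. With YEXX-2A the count was 13 without YEXX-2A replicate 1 and 7 without YEXX-2A replicate 2. The list had median log2 fold changes of -0.10, -0.13 and -0.09. The kinases Rock1 and Rock2, which drive contraction of the actin cytoskeleton, rose with YEXX-2A. Rock2 measured 49.8, 31.4 and 53.3 CPM in vehicle and 92.6, 107.5 and 74.5 in YEXX-2A (2.04-fold, adjusted p = 0.00455), and was 56.9, 52.6 and 50.2 in YWCH-4A (adjusted p = 0.333). Rock1 was 17.5, 9.59 and 18.7 CPM in vehicle and 26.7, 29.2 and 21.6 in YEXX-2A (1.69-fold, adjusted p = 0.0221; 0.0682 and 0.0892 without YEXX-2A replicate 1 and 2). Adam10, a protease that cleaves ephrins, also rose with YEXX-2A (1.68-fold, adjusted p = 0.0131; 0.0604 without YEXX-2A replicate 2), and vehicle replicate 2 was the lowest library of the 9 for Rock1, Rock2 and Adam10.

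L1cam, an adhesion molecule that joins the Sema3a receptor, had 1, 6 and 4 counts in the vehicle libraries, 1, 2 and 0 in YEXX-2A and 70, 59 and 60 in YWCH-4A. It entered the test only through the YWCH-4A libraries, where it is high, so its values are given as a description. The ratio of YWCH-4A to YEXX-2A was 61.4, with an exact 95% interval of 20.7 to 301 that covers counting error only. Rnd1, a small GTPase that binds plexins, rose 2.02-fold with YWCH-4A (adjusted p = 2e-04). Vegfd and Pgf, growth factors of the VEGF family, fell 3.22-fold (adjusted p = 0.000816) and 2.62-fold (adjusted p = 0.0133; up to 0.0562 without vehicle replicate 1, YWCH-4A replicate 1 or YWCH-4A replicate 2), and Ntng2, a membrane-anchored netrin relative, fell with YEXX-2A (1.74-fold, adjusted p = 0.0079) and with YWCH-4A (2.19-fold, adjusted p = 0.000395). Flrt3, a ligand of Unc5 receptors, was 4.12-fold lower in YWCH-4A than in YEXX-2A (adjusted p = 0.00729) and 2.80-fold lower than in vehicle (adjusted p = 0.042), a call lost in 10 of 15 alternatives (log2 -0.78, adjusted p = 0.175 without vehicle replicate 3). The netrin receptor Dcc had no count in any library. Neogenin (Neo1), which also binds netrins, was 235.4, 241.4 and 248.2 CPM in vehicle, 257.7, 250.8 and 263.0 in YEXX-2A and 213.1, 215.9 and 210.6 in YWCH-4A, 1.21-fold lower in YWCH-4A than in YEXX-2A (adjusted p = 0.00322). Its fall against vehicle (1.13-fold, adjusted p = 0.0246) did not hold without vehicle replicate 3 or any YWCH-4A library (adjusted p up to 0.0931).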

How the data were processed

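The genes and lists were chosen with earlier results of these data known. For each of 22050 genes and 9 libraries, the authors deposited an estimated count, made by a step that is not named and not whole for 8.87% of values above 0, and an FPKM value, per the file headers. A second table of values per group was not used. StringTie 1.3.1, RSEM, DESeq2 and edgeR are named in the submitters' processing notes, with no role or order. The aligner, genome build and use of strand are not given in the sources used here, so reads of overlapping and antisense genes are not separable.

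Estimated counts were rounded to whole numbers. In R 4.3.3, genes were filtered with filterByExpr (minimum count 10), which left 11473 genes, including all 44 guidance genes. Libraries were scaled by TMM, and CPM values use the scaled sizes. FPKM values are as deposited, without this scaling, so group differences in FPKM and CPM are not the same. Mean Nrp2, for example, was 1207, 1055 and 1226 CPM but 178.6, 165.3 and 204.5 FPKM in vehicle, YEXX-2A and YWCH-4A. The robust quasi-likelihood test of edgeR 4.0.16 had group as its factor over all 9 libraries, with two-sided p-values adjusted by Benjamini-Hochberg over all genes tested and calls at 0.05. The SE of a log2 fold change is its size divided by the square root of F. The shared spread estimate pools groups of unequal scatter. The fit was tested on simulated data with 200 changed genes and the same spread in all groups. That test does not cover the unequal scatter of these libraries. A gene was given in full where it was called with a log2 change of at least 1, or was among the 4 called with the smallest p in a comparison; partner genes were named where they were among the 4 called with the largest change, and Dcc and Neo1 always. Counts of low genes limit precision: 1 count was worth 0.0455 to 0.0792 CPM. The alternatives were other size factors and count filters, DESeq2 1.42.0, limma 3.58.1 with voom and group quality weights, fits on 2 groups, a replicate block and leaving out each library. Promoters came from a RefSeq table of GRCr8, matched by symbol.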

Additional observations from a re-analysis of the deposited data

How the results depend on the processing

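No value of the 44 genes with a call changed sign under the 16 alternatives, of which 9 left out a library. Calls held under every alternative that tested the gene for 7 of 19 genes with YEXX-2A against vehicle, 22 of 28 with YWCH-4A against vehicle and 17 of 21 between the compounds; Sema4a, among the 22 and the 17, was not tested under the stricter filter. The comparison of YEXX-2A with vehicle moved most. Its 19 guidance genes became 9, its 23 partner genes 11 and its 4145 genes in all 1408 when only these groups were fitted. Leaving out a library gave 7 to 26 guidance genes, 7 to 29 partner genes and 1044 to 5308 genes in all. The lowest values came without YEXX-2A replicate 2, the next lowest without YEXX-2A replicate 1 (9, 13 and 1459) and the highest without vehicle replicate 3. For YWCH-4A against vehicle, leaving out a library gave 23 to 29 guidance genes. Between the compounds it gave 17 to 28 guidance genes, 18 to 41 partner genes (19 without YWCH-4A replicate 3) and 2225 to 6001 genes in all, with 2288 and 2293 without YWCH-4A replicate 1 and 3. All 3 highest values came without vehicle replicate 2. Between the compounds, limma with group quality weights called 5980 genes in all, and a fit on these groups alone called 5903, against 3593. The causes of these shifts were not tested. The replicate numbers do not pair the libraries: same-numbered libraries of different groups had correlations of -0.265 to 0.081, and 0 of 9 libraries correlated best with their own number. With the replicate block, 12 guidance genes and 1931 genes in all were called with YEXX-2A against vehicle, none of the guidance genes higher (Sema3c adjusted p = 0.073, Sema3d 0.0504), 25 guidance genes with YWCH-4A against vehicle and 19 between the compounds. Sema4a and Ephb2 were the genes removed by a stricter filter on low counts, which left 42, and counting error is widest for these.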
